A study of Homo sapiens with 9 samples.

Results

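Metallothioneins are small cysteine-rich proteins that bind zinc and copper, and toxic metals such as cadmium, in clusters of thiolate bonds. The genes studied here were 6 metallothioneins (MT1E, MT1F, MT1G, MT1M, MT1X and MT2A) and 2 zinc-response reference genes, MTF1 and SLC30A1. They were taken by symbol from the tables of all genes, which makes 8 of 63856 genes. The rule uses symbols and no threshold on a value, although it was set with earlier results of these data known. All 8 genes had enough counts to enter the test (18452 genes were tested in all).

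RNA was sequenced from TCam-2 cells, an established human testicular seminoma line, in 3 groups of 3 biological replicates. Wild type cells (WT) were not modified. The negative control (NC) received a px335_G2P vector, which also encodes GFP, with gRNAs that match no human sequence. The ESX1 group received 3 vectors of this kind with gRNAs against the region before the ESX1 start site, together with PB-TRE-dCas9-VPR, a vector for a doxycycline-inducible, nuclease-dead Cas9 fused to transcription activators (CRISPRa). Transfected cells were selected with puromycin in the presence of doxycycline and collected 72 h after transfection. The paper reports that a minority of cells in either transfected group was GFP-positive after selection and induction. No cell sorting is described, so bulk values may mix cells with and without the vectors. No cloning step is described. Whether WT cells met either drug, and whether NC cells received the dCas9-VPR vector, is not stated, so that in a comparison with WT the transfection, the vectors and the drugs cannot be told apart, and between ESX1 and NC neither can the activator protein and the activation of ESX1. Every group carries the same cell line background, and NC is the control that shares the transfection.

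Total counts per sample ranged from 5212804 to 10644408, with the smallest in ESX1 replicate 3. The labels were checked on ESX1, a homeobox gene of the testis. It stood at 3.60, 4.08 and 3.13 normalized counts per 1000000 (CPM, the count relative to the TMM-scaled library size) in WT and at 3.63, 2.89 and 3.46 in NC. In the ESX1 group it stood at 57.0, 55.7 and 31.4, which was above both controls (log2 fold change against NC 3.85, edgeR adjusted p = 4.48e-08). All 10 listed seminoma markers, among them POU5F1, NANOG, SOX17 and TFAP2C, were expressed, and their summed level was 3930 to 4880 CPM in WT.

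In most cells metallothionein transcription follows the free zinc of the cell. MTF1 is the zinc-sensing transcription factor that binds metal response elements in the promoters of metallothionein genes and of SLC30A1, and SLC30A1 is the zinc exporter of the plasma membrane. Glucocorticoids, heavy metals and oxidants are other known inducers of MT1 and MT2A genes. MT1E, MT1F, MT1G, MT1M and MT1X are closely related MT1 isoforms, and MT2A is the human MT2 gene.

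The 6 metallothioneins lie in one cluster on chromosome 16 of GRCh38, between 56608199 and 56684196, a span of 76.0 kb. From one end to the other the order is MT2A (ENSG00000125148.6, 56608199 to 56609497), MT1E (ENSG00000169715.14, 56625475 to 56627112), MT1M (ENSG00000205364.3, 56632233 to 56633986), MT1F (ENSG00000198417.6, 56657694 to 56660698), MT1G (ENSG00000125144.13, 56666731 to 56668065) and MT1X (ENSG00000187193.8, 56682424 to 56684196). MT1G is on the minus strand and the other members of the cluster are on the plus strand. MTF1 (ENSG00000188786.9) and SLC30A1 (ENSG00000170385.9) are on the minus strand of chromosome 1, at 37809567 to 37859620 and 211571568 to 211578742. Of the exon bases of MT1X, 18.1% also belong to another annotated gene, RP11-343H19.2, which had 0 counts in all samples. How reads on these shared bases were assigned was not tested, so the MT1X level may be too low. The other members share no exon base with another gene.

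RefSeq promoter sequences (build GRCh38.p14) were at hand for 4 of the 8 genes, namely MT2A, MT1X, SLC30A1 and MTF1. The window of each gene ran from 250 bases before the RefSeq start to 50 bases after it. The core of the metal response element was searched on both strands as TGCACNC, the letters of the classic element, and as TGCGCNC, a variant with a G in place of the A. The 2 spellings cannot match the same letters on one strand, and no matches overlapped in the sequences shown. The 250 bases before the start of the metallothioneins MT2A (chr16:56608334-56608583, plus strand) and MT1X (chr16:56682220-56682469, plus strand) and of SLC30A1 (chr1:211579162-211579411, minus strand) are shown 5′ to 3′ because they hold the letters that MTF1 is known to read, with each match in capitals.
MT2A: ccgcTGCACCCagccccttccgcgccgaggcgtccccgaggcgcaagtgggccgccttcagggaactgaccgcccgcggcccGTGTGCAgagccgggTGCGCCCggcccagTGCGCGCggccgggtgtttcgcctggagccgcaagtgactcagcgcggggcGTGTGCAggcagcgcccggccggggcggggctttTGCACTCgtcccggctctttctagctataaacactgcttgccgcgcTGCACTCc
MT1X: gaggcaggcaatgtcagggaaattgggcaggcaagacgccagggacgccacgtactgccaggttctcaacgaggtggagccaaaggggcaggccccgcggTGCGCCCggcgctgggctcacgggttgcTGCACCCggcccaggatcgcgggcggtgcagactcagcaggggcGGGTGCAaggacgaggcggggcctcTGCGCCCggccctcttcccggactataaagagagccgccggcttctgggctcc
SLC30A1: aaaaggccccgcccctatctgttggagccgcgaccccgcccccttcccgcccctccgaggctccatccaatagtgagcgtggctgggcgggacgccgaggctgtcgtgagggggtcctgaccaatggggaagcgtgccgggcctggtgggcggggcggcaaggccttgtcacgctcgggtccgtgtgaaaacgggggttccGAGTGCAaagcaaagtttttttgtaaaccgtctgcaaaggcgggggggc

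The window of MT2A held 8 matches, of which 7 lie before the start, and 0.02% of all 35116 RefSeq promoters held as many or more. MT1X held 4 matches, all before the start, a number that 0.601% of all promoters reached. SLC30A1 held 2 matches, 1 on each side of the start, and 8.6% of promoters held 2 or more. No match was in the window of MTF1, while 29.6% of all promoters held at least 1. Outside the 8 genes, the family genes MT1H (8 matches), MT1B (3) and MT4 (3) held matches too, although their RNA was low or absent here. These are letter matches and do not show binding. The MT2A window lies inside the GENCODE span of the gene, which begins further upstream than the RefSeq start. The SLC30A1 window (chr1:211579112-211579411) lies wholly upstream of its GENCODE span, which begins at 211578742 on the minus strand. The bases just before that GENCODE start were not searched.

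**Figure D1:**
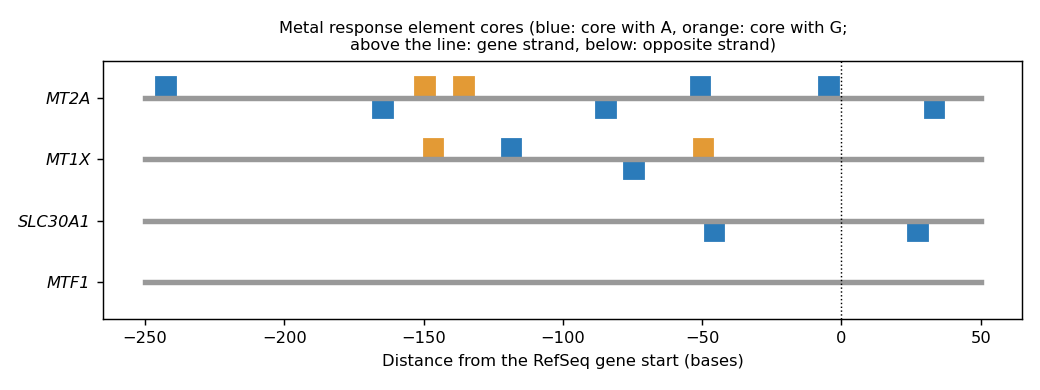
Positions of metal response element cores in the 300-base promoter windows of MT2A, MT1X, SLC30A1 and MTF1, by distance from the RefSeq start in bases, with the core with A in blue, the core with G in orange, and matches to the gene strand above the line. MT2A holds 8 matches spread over the window, MT1X 4, SLC30A1 2 and MTF1 0.

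Metallothionein transcripts were less abundant in both transfected groups than in WT. The summed level of the 6 metallothioneins was 149, 167 and 173 CPM in WT, 92.0, 76.0 and 79.0 CPM in NC, and 74.7, 74.5 and 84.6 CPM in the ESX1 group. Means and SD (n = 3) were 163 ± 12.7 for WT, 82.3 ± 8.54 for NC and 78.0 ± 5.76 for ESX1, so that NC held 50.6% and ESX1 47.9% of the WT sum. Every WT library was above every transfected library, and the ranges of NC and ESX1 overlapped. With 3 samples against 3, a 2-sided exact permutation test of the sum cannot go below p = 0.1. In bulk RNA, fewer cells with these transcripts and less transcript per cell cannot be told apart.

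**Figure D2:**
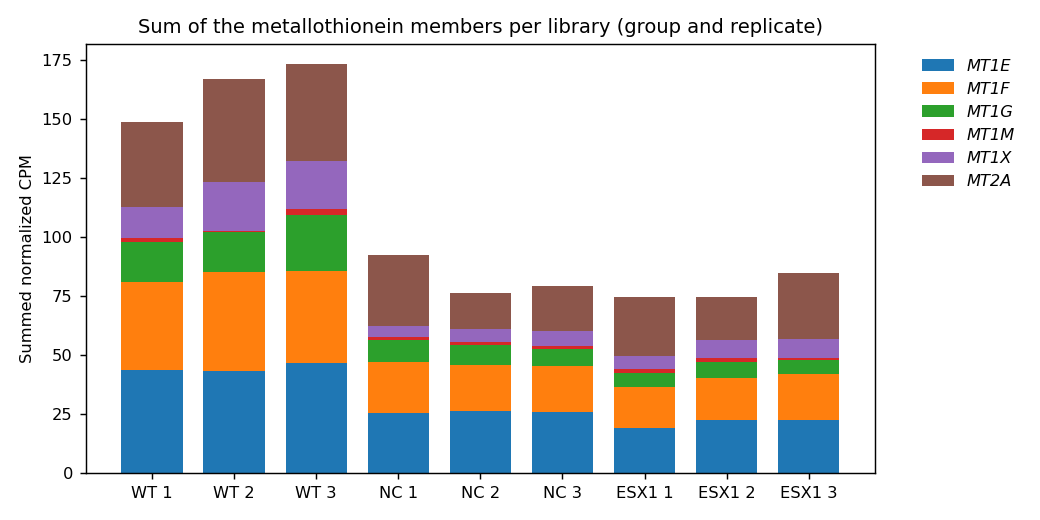
Summed normalized CPM of the 6 metallothioneins in each library, stacked by gene, from 0. The 3 WT libraries reach 149 to 173 CPM and the 6 transfected libraries 74.5 to 92.0 CPM, with MT1E, MT1F and MT2A as the largest layers.

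MT1E, MT1F and MT2A made up most of the sum. MT1E gave 27.4% ± 1.73 (SD, n = 3) of it in WT, MT2A 24.7% ± 1.25 and MT1F 24.2% ± 1.49. MT1G gave 11.7% ± 1.77 and MT1X 11% ± 1.98 in WT, and MT1M the remainder. In NC the share of MT1X was 6.55% ± 1.6, and in ESX1 the share of MT1G was 8.19% ± 1.11. Shares of one sum are tied to each other and were not tested.

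Levels of different genes were set side by side per kb of exon length. This length counts every annotated exon base of the gene, 750 for MT1G, 1773 for MT1X and 1889 for MT1F, and not 1 mature transcript. The order therefore depends on the annotation, and by mean CPM in WT MT1F (39.3) stood above MT1G (19.2). In WT the order was MT1E (42.3 CPM per kb), MT2A (30.9), MT1G (25.6), SLC30A1 (24.1), MT1F (20.8), MT1X (10.2), MTF1 (2.81) and MT1M (1.77). MT1E stood above every other gene of the set in all WT libraries, the 4 genes from MT2A to MT1F overlapped with their neighbours in the order, and MT1M overlapped with MTF1. In NC the order began with MT1E (24.5 CPM per kb) and SLC30A1 (24.0), which overlapped. In the ESX1 group SLC30A1 (26.4 CPM per kb) came first, without overlap with MT1E (20.1). MT1M was last in each group.

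**Figure D3:**
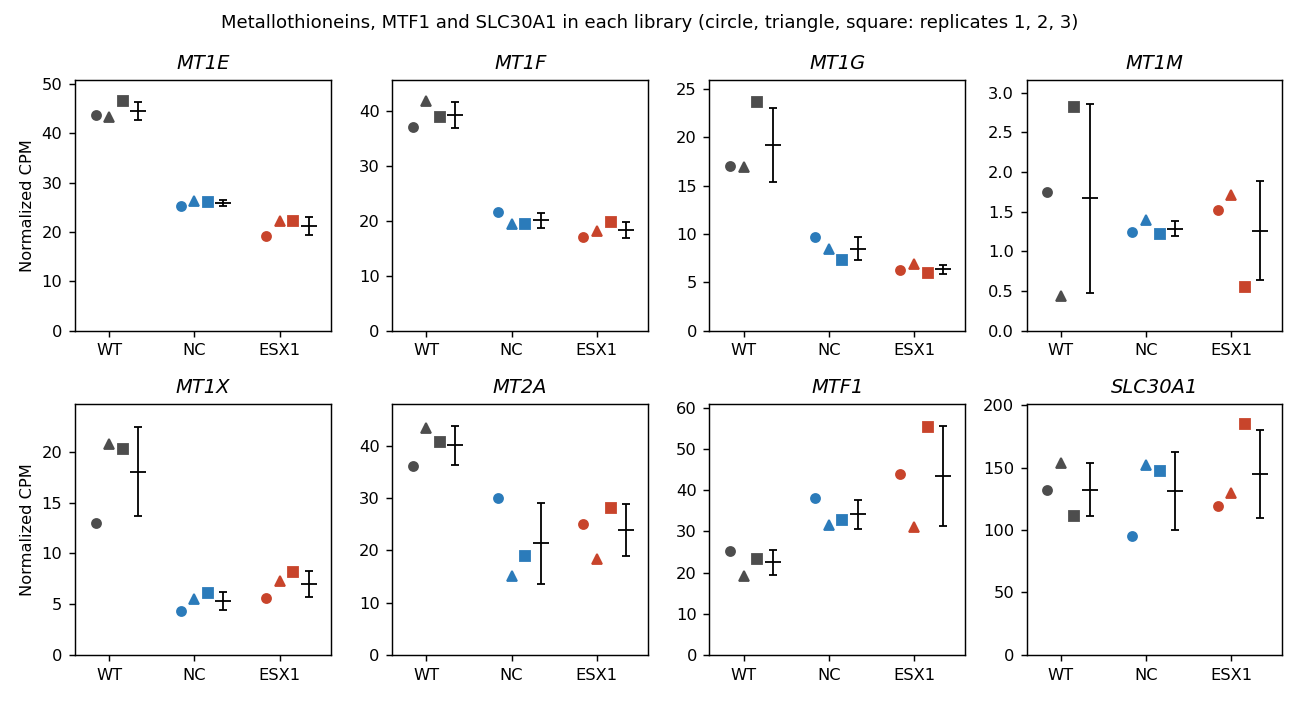
Normalized CPM of each gene in the 9 libraries, with points for replicates 1 to 3 and the mean with its SD (n = 3) beside them, each axis starting at 0. For MT1E, MT1F, MT1G, MT1X and MT2A all WT points lie above all NC and ESX1 points, for MTF1 they lie below them, and for MT1M and SLC30A1 the groups overlap.

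The comparison of NC with WT covers everything that separates transfected, selected cells from unmodified ones. Genes were called at an adjusted p below 0.05 and a change of at least 2-fold, which 5.27% of all tested genes reached in this comparison, 2.15% lower and 3.12% higher. By this rule 2 of the 8 genes were called, MT1X and MT1G, both lower in NC. Without the 2-fold limit, 5 of the 6 metallothioneins were lower in NC, where 10.3% of all tested genes were lower and 6.82% higher. The median log2 fold change of the 6 metallothioneins was -0.94, beside 0.009 over all tested genes.

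MT1X had the largest difference of the 8 genes. It stood at 13.0, 20.8 and 20.3 CPM in WT and at 4.35, 5.47 and 6.11 CPM in NC. The groups were far apart, with the highest NC library below the lowest WT library (log2 fold change -1.76, SE 0.242, edgeR adjusted p = 1.40e-04). Of all tested genes, 0.52% had a log2 fold change as low or lower.

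MT1G, another of the MT1 isoforms, stood at 17.0, 16.9 and 23.6 CPM in WT and at 9.64, 8.47 and 7.33 CPM in NC. Each NC library was below each WT library, at 44.1% of the WT level (log2 fold change -1.18, SE 0.204, edgeR adjusted p = 8.19e-04).

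MT1F stood at 37.1, 41.8 and 38.9 CPM in WT and at 21.6, 19.3 and 19.3 CPM in NC. It was lower in NC, but just short of 2-fold (log2 fold change -0.97, SE 0.144, edgeR adjusted p = 2.67e-04), and it passed that limit at -1.01 without WT replicate 1 or without NC replicate 1. MT1E, the most abundant member, stood at 43.6, 43.3 and 46.6 CPM in WT and at 25.2, 26.3 and 26 CPM in NC. Its replicates lay close together, and NC reached 58.0% of the WT level (log2 fold change -0.79, SE 0.135, edgeR adjusted p = 7.96e-04).

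MT2A stood at 36.1, 43.4 and 40.8 CPM in WT and at 30.1, 15.1 and 19.0 CPM in NC. NC replicate 1 was close to the lowest WT library and the other two NC libraries were well below it (log2 fold change -0.90, SE 0.215, edgeR adjusted p = 0.00785). Without NC replicate 2 the adjusted p was 0.0554 (log2 fold change -0.69), and without NC replicate 3 it was 0.0519 (log2 fold change -0.81). Without NC replicate 1 the log2 fold change was -1.21, past the 2-fold limit. The non-overlap of these 5 genes stands beside 20% of all tested genes that had every NC library below every WT library.

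MT1M was near the lower end of what could be measured. Its counts were 16, 3 and 27 in WT and 12, 13 and 12 in NC, so that WT replicate 2 lay below and the other WT libraries above the NC libraries. Its log2 fold change of -0.41 had a 95% interval from -1.59 to 0.76 (edgeR adjusted p = 0.656), which leaves a fall like that of MT1G and a rise of less than 2-fold both possible.

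MTF1, the zinc-sensing transcription factor, differed in the other direction. It stood at 25.2, 19.2 and 23.2 CPM in WT and at 38.0, 31.6 and 32.7 CPM in NC, with no overlap (17.6% of all tested genes were higher without overlap). The log2 fold change was 0.59 (SE 0.188, edgeR adjusted p = 0.038), under the 2-fold limit. The adjusted p passed 0.05 without WT replicate 2 (0.158), without WT replicate 3 (0.0781), and without NC replicate 1 (0.134), 2 (0.0605) or 3 (0.0762), with log2 fold changes between 0.49 and 0.66. It was 0.0595 with all libraries thinned to the smallest total.

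SLC30A1, the zinc exporter, stood at 132, 154 and 111 CPM in WT and at 95.6, 152 and 147 CPM in NC. The libraries of both groups were mixed, with NC replicate 1 the lowest of all. The log2 fold change was -0.01, with a 95% interval from -0.39 to 0.38 (edgeR adjusted p = 0.985).

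**Figure D4:**
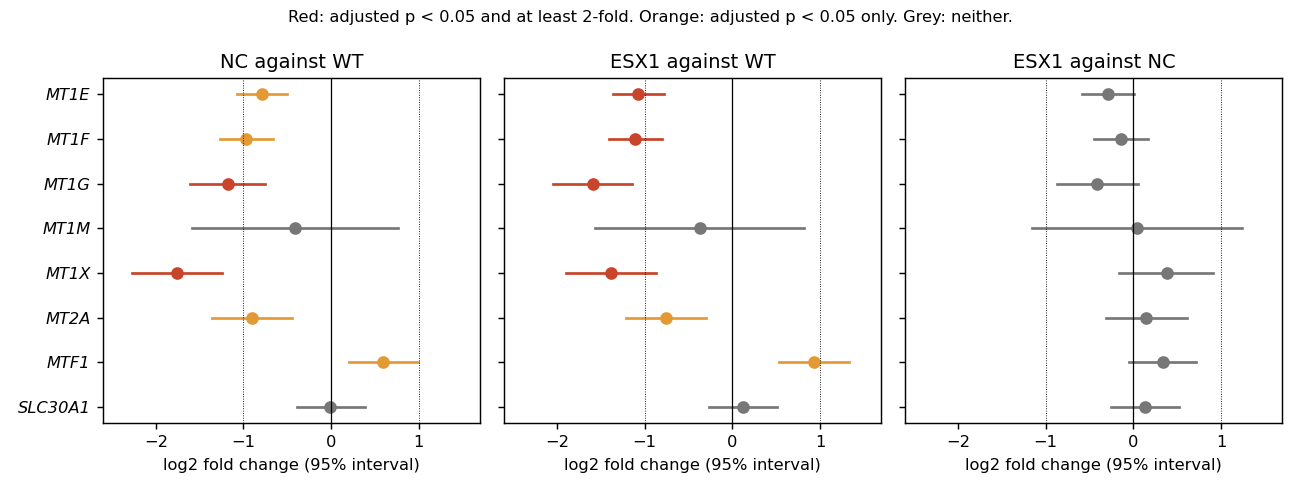
Log2 fold change of each gene in the 3 comparisons with its 95% interval, in red where the adjusted p was below 0.05 with at least 2-fold change, in orange where the adjusted p alone was below 0.05, and in grey otherwise. Against WT, 5 metallothioneins lie below 0 in both transfected groups and MTF1 above it, whereas in ESX1 against NC all intervals include 0.

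The comparison of the ESX1 group with WT uses the same WT libraries, and holds the ESX1 gRNAs and the dCas9-VPR vector beside transfection and selection. Of all tested genes 11.5% were called, 4.77% lower and 6.78% higher. Of the 8 genes 4 were called, MT1E, MT1F, MT1G and MT1X, all lower in the ESX1 group. MT2A was lower and MTF1 higher by the adjusted p alone, a rule that 28.8% of tested genes met, 15.8% as lower and 12.9% as higher. The median log2 fold change of the 6 metallothioneins was -1.09, beside 0.007 over all tested genes.

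MT1G stood at 6.29, 6.84 and 5.91 CPM in the ESX1 group, against at least 16.9 CPM in WT (log2 fold change -1.59, SE 0.212, edgeR adjusted p = 3.13e-05). MT1X stood at 5.58, 7.24 and 8.13 CPM, 38.4% of its WT level (log2 fold change -1.38, SE 0.240, edgeR adjusted p = 3.80e-04). Both were below WT in all 3 libraries.

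MT1F stood at 17.0, 18.1 and 19.8 CPM in the ESX1 group (log2 fold change -1.11 against WT, SE 0.147, edgeR adjusted p = 2.95e-05). MT1E stood at 19.2, 22.2 and 22.2 CPM (log2 fold change -1.07, SE 0.138, edgeR adjusted p = 2.18e-05). Both were close to the 2-fold limit, and their calls depended on the fold limit and not on the adjusted p under the other settings tried.

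MT2A stood at 25.1, 18.4 and 28.1 CPM in the ESX1 group, below all WT libraries at 59.1% of their level (log2 fold change -0.76, SE 0.216, edgeR adjusted p = 0.0138). Its adjusted p was 0.0505 without WT replicate 2 and 0.0554 without ESX1 replicate 2. MT1M had 15, 17 and 3 counts in the ESX1 group, with the lowest in the shallowest library, and its log2 fold change of -0.37 had a 95% interval from -1.56 to 0.82 (edgeR adjusted p = 0.665). Non-overlap below WT, seen for the same 5 metallothioneins, was met by 21.3% of all tested genes, and non-overlap above WT by 18.9%.

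MTF1 stood at 43.9, 31.0 and 55.4 CPM in the ESX1 group, 191% of the WT level and above every WT library (log2 fold change 0.93, SE 0.188, edgeR adjusted p = 0.00133). It passed the 2-fold limit at 1.01 without WT replicate 1, at 1.12 without ESX1 replicate 2 and at 1.03 with upper-quartile scaling. MTF1 was uneven within the ESX1 group, with replicate 2 just below the NC libraries. SLC30A1 stood at 119, 130 and 185 CPM and overlapped with WT (log2 fold change 0.12, 95% interval from -0.26 to 0.51, edgeR adjusted p = 0.654).

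The comparison of the ESX1 group with NC sets 2 transfected groups side by side. They differ by the gRNAs and the activation of ESX1, and possibly by the dCas9-VPR vector. Here 1.78% of all tested genes were called, 0.699% lower and 1.08% higher, and none of the 8 genes was. By the adjusted p alone, 2.37% of tested genes were lower and 1.88% higher, and again none of the 8 genes was among them. At an unadjusted p below 0.05 the count was also 0 in edgeR, in DESeq2 and in limma. The median log2 fold change of the 6 metallothioneins was -0.05, beside 0.000 over all tested genes.

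The 95% intervals show what difference in the bulk RNA of these groups could have been missed. For MT1E the interval ran from -0.58 to 0.01 around a log2 fold change of -0.29 (edgeR adjusted p = 0.326), and for MT1G from -0.87 to 0.05 around -0.41 (edgeR adjusted p = 0.389). In both genes all ESX1 libraries were below all NC libraries, which 11.8% of all tested genes showed, while 10.7% were above NC without overlap. For MT1F the interval ran from -0.45 to 0.17, for MT1X from -0.16 to 0.91, and for MT2A from -0.31 to 0.61. The interval of MT1M, from -1.16 to 1.24, excluded no 2-fold change.

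MTF1 had a log2 fold change of 0.34 between ESX1 and NC, with an interval from -0.05 to 0.72 (edgeR adjusted p = 0.400). For SLC30A1 the value was 0.13, with an interval from -0.25 to 0.52 (edgeR adjusted p = 0.805). Apart from MT1M, no interval of the 8 genes reached a 2-fold change in either direction.

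The rest of the metallothionein family had few or no counts in TCam-2 cells. MT1H, at a mean of 1.27 CPM over the 9 libraries, was near the member MT1M (1.41 CPM). Of 12 family genes in the tables, MT1H was the only further one with enough counts for a test, at 20, 4 and 4 counts in WT, 5, 22 and 3 in NC, and 33, 12 and 3 in ESX1. Its counts scattered within every group, and the edgeR adjusted p was 0.520 or more in each comparison. MT1A had 1, 1 and 2 counts in WT, 5, 5 and 9 in NC and 3, 5 and 2 in ESX1, and was not tested. MT3, the isoform known from brain, had at most 1 count in a library, MT1HL1 had 4 counts in NC replicate 1 only, and MT1B and MT4 had 0 counts throughout.

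Of 8 listed metallothionein pseudogenes or noncoding relatives in the tables, MT1L was tested, with 15, 10 and 30 counts in WT, 25, 7 and 17 in NC and 5, 17 and 7 in ESX1 (lowest edgeR adjusted p = 0.273, ESX1 against WT). MT1XP1, MT2P1, MT1P1, MT1DP, MT1JP and MT1CP had at most 5 counts in a library, and MT1P3 had none. With every family gene and pseudogene added, the summed level was 167 ± 11.9 CPM in WT, 86.6 ± 9.49 in NC and 81.9 ± 4.80 in ESX1 (SD, n = 3).

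Related copies could exchange or lose reads. Of all 50-base windows in the annotated transcripts, 18.2% of MT1M, 16.4% of MT1G and 15.8% of MT1H also occurred in another metallothionein gene or pseudogene, against 7.1% of MT1E, 4.2% of MT2A, 3.7% of MT1X and 1.2% of MT1F. Read pairs that aligned to several places were not counted by the authors, so some levels may be too low. The reads were longer than these windows, and the transcripts came from a later GENCODE release than the counts. The shares therefore do not measure how many pairs were lost. The loss would be alike in all groups only if the copies kept their proportions, which was not tested.

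The profile of MT1E over the 9 libraries, as log2 CPM centred on its mean, was compared with those of other genes by the root mean square difference. MT1F was the nearest member, at 0.117, followed by MT1G (0.260), MT2A (0.368), MT1X (0.442) and MT1M (0.735). The 5 nearest genes outside the family, of 6076 candidates whose profile had an SD of at least 0.5, were RCN2 (0.10), QSER1 (0.122), HS6ST1 (0.134), DLC1 (0.135) and FAM102B (0.136). RCN2 is a calcium-binding protein of the secretory pathway and HS6ST1 a heparan sulfate sulfotransferase. The libraries of all these profiles are the same ones, and likeness over 9 libraries in 3 groups is a description only.

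Other genes of metal handling were taken as fixed lists. Of 10 zinc exporters of the SLC30 family 8 were tested, SLC30A1 among them. None was called in NC against WT, where 5.27% of all tested genes were. In ESX1 against WT 2 were higher and 1 lower, where 6.78% of all tested genes were higher and 4.77% lower. SLC30A4, which moves zinc into vesicles, stood at 3.82, 2.77 and 3.03 CPM in WT, at 3.42, 7.93 and 5.39 in NC and at 7.5, 6.84 and 7.39 in ESX1 (log2 fold change against WT 1.16, edgeR adjusted p = 0.00919). SLC30A2, another vesicular exporter, was at 1.42 to 3.50 CPM in WT and at 0.402 to 1.01 CPM in ESX1 (log2 fold change -1.76, edgeR adjusted p = 0.0221). These levels rest on 13, 24 and 20 counts in WT and 10, 4 and 3 in ESX1, near the lower end of what could be measured.

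SLC30A3, the transporter that loads synaptic vesicles with zinc, was the one listed zinc gene called in ESX1 against NC. It had 3, 0 and 0 counts in WT, 2, 0 and 0 in NC, and 21, 16 and 9 in ESX1 (edgeR adjusted p = 0.0111 against NC and 0.00448 against WT). It was close to undetected in both controls, so no fold change is given. The medians of the tested zinc exporters were -0.24, 0.15 and 0.27 on the log2 scale for NC against WT, ESX1 against WT and ESX1 against NC.

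Of 14 zinc importers of the SLC39 family 12 were tested, and 1 was called, in ESX1 against WT, where 11.5% of all tested genes were. SLC39A10, a zinc importer of the plasma membrane, stood at 188, 195 and 178 CPM in WT, at 87.9, 117 and 105 in NC and at 74.4, 88.6 and 68.7 in ESX1. Its log2 fold change was -0.86 in NC against WT (edgeR adjusted p = 2.57e-04) and -1.27 in ESX1 against WT (edgeR adjusted p = 1.82e-06), all WT libraries being above the others. Between ESX1 and NC the value was -0.41 (edgeR adjusted p = 0.0849). Importer medians were -0.02, 0.14 and 0.12 in the same order of comparisons.

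Of 10 genes of copper handling (transporters, chaperones and SOD1) 8 were tested. None was called in NC against WT, ESX1 against WT or ESX1 against NC, where 5.27%, 11.5% and 1.78% of all tested genes were. None passed the adjusted p alone in edgeR, which 17.1%, 28.8% and 4.25% of all tested genes did. Their medians were -0.05, 0.07 and -0.05.

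Among 10 listed genes of the oxidant and heavy metal response, all were tested and those that were called were higher in the transfected cells. In NC against WT 4 were called higher and 0 lower, in ESX1 against WT 5 higher and 0 lower, and in ESX1 against NC 1 higher and 0 lower, with medians of 0.62, 1.02 and 0.60 on the log2 scale. Of all tested genes 3.12%, 6.78% and 1.08% were called higher in these comparisons. HMOX1, the heme oxygenase that metals and oxidants induce, stood at 2.62, 1.31 and 0.940 CPM in WT, at 24.4, 23.2 and 21 in NC, and at 141, 47.4 and 77.8 in ESX1. Its log2 fold change was 3.79 in NC against WT (edgeR adjusted p = 1.65e-05), 5.75 in ESX1 against WT (2.69e-08) and 1.96 in ESX1 against NC (5.92e-04), and the 3 groups did not overlap.

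GCLM, a subunit of the enzyme that starts glutathione synthesis, rose in both transfected groups, with log2 fold changes of 1.09 in NC (edgeR adjusted p = 0.00114) and 1.52 in ESX1 (edgeR adjusted p = 2.20e-05) against WT. SLC7A11, the cystine importer, had log2 fold changes of 0.99 and 1.22, of which only the second reached the fold limit (edgeR adjusted p = 1.02e-04 and 3.39e-06). The heat shock genes HSPA1A and HSPA1B are near-identical copies whose reads cannot be assigned with certainty. HSPA1B stood at 19.3, 17.3 and 16.7 CPM in WT, at 84.2, 81.2 and 78.6 in NC and at 168, 90.8 and 176 in ESX1, and HSPA1A at most at 11.7 CPM. Both were called higher in each transfected group against WT, with log2 fold changes of 2.19 and 3.02 for HSPA1B and 2.40 and 3.45 for HSPA1A.

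Of 9 listed genes of the glucocorticoid response 8 were tested. None was called in NC against WT or in ESX1 against NC, where 5.27% and 1.78% of all tested genes were. In ESX1 against WT 3 were higher and 1 lower, beside 6.78% and 4.77% of all tested genes. TSC22D3 (log2 fold change 1.33, edgeR adjusted p = 3.16e-04), PER1 (1.30, 0.00164) and DUSP1 (1.18, 2.05e-04) were higher, and the kinase gene SGK1 was lower (-1.10, 3.45e-05). By the adjusted p alone, 2 of the 8 were higher and 2 lower in NC against WT, beside 6.82% and 10.3% of all tested genes. TSC22D3 (log2 fold change 0.85, edgeR adjusted p = 0.0164) and PER1 (0.81, 0.0486) were the higher ones, and SGK1 (-0.75, 0.00221) was among the lower. In ESX1 against NC 1 was higher by that rule, DUSP1 (0.82, 0.0161), and 0 lower, beside 1.88% and 2.37%. The medians were 0.08, 0.36 and 0.26.

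Levels of other marker genes moved with the groups as well. The 10 seminoma markers summed to 3930 to 4880 CPM in WT, 3000 to 3210 in NC and 1690 to 2080 in ESX1, with 2 of 10 called lower in NC and 7 of 10 in ESX1 against WT, beside 2.15% and 4.77% of all tested genes. In ESX1 against NC 1 of 10 was called lower, 7 of 10 were lower by the adjusted p alone and 8 of 10 without overlap, beside 0.699%, 2.37% and 11.8% of all tested genes. Markers of fibroblasts summed to 205 to 357 CPM in WT, 139 to 175 in NC and 112 to 231 in ESX1, and 4 of 8 could be tested. Most of that sum was COL1A2 (173 to 334 CPM in WT), and its members went opposite ways, with COL1A1 called higher (log2 fold change 2.19 in NC and 2.27 in ESX1 against WT) and THY1 called lower (-1.86 and -3.33).

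Of 8 genes listed as mesoderm and endoderm markers 7 were in the tables, and they summed to 4.39 to 10.8 CPM in WT, 12.5 to 17.4 in NC and 14.6 to 19.9 in ESX1, with AFP at 0. SOX2, a gene of pluripotent and neural cells that was kept in this list, made up 1.88 to 5.46 CPM of the sum in WT, 6.74 to 11.8 in NC and 5.48 to 10.2 in ESX1, and was the one listed gene called in NC against WT (log2 fold change 1.23, edgeR adjusted p = 0.0222). GATA6 (log2 fold change 1.56, edgeR adjusted p = 0.0387) and MIXL1 (1.29, 0.0196) were called higher in ESX1 against WT. Only 3 of the listed genes were tested. Of all tested genes 3.12% were called higher in NC against WT and 6.78% in ESX1 against WT. GATA6 had 27, 4 and 4 counts in WT, and its WT and ESX1 libraries overlapped.

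Sertoli cell markers summed to 24.2 to 29.0, 24.8 to 30.3 and 17.9 to 41.4 CPM, in the order WT, NC and ESX1. Of these 7 genes 3 were tested, and none was called against WT. SOX9 was called higher in ESX1 against NC (log2 fold change 1.83, edgeR adjusted p = 0.012), as were 1.08% of all tested genes. Leydig cell markers (1.46 to 3.17, 3.16 to 5.91 and 2.41 to 6.49 CPM) had HSD3B2 and INSL3 at 0. Of these 6 genes 2 were tested. CYP11A1, at 3, 2 and 3 counts in WT, was called higher in NC (log2 fold change 2.03, edgeR adjusted p = 0.0392). It was also called higher in ESX1 against WT (2.14, 0.0199). Of all tested genes 3.12% and 6.78% were called higher in these comparisons. Leukocyte markers (0.655 to 2.92, 1.82 to 3.56 and 1.61 to 2.77 CPM) had CD3E and LYZ at 0. The part of these differences in the metallothionein levels was not tested. The share of counts on mitochondrially encoded genes was 17.02% to 18.33% in WT, 14.45% to 15.25% in NC and 19.20% to 19.87% in ESX1, and leaving those genes out changed no call among the 8 genes.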

How the data were processed

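TCam-2 RNA, depleted of ribosomal RNA, was sequenced as read pairs in 9 samples. The authors used HISAT2 2.0.5 and GRCh38 for alignment. Pairs that hit 1 place were assigned to genes by featureCounts with strand ignored, and the authors deposited the raw counts. The submitters' processing notes name featureCounts 1.6.5, the header of the count table version 1.5.2 and GENCODE 26. A second deposited table holds log2 values, described as normalized with DESeq2, whose transformation is not given in the sources used here. Equal counts carried equal log2 values within each sample.

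Tests were run with edgeR 4.0.16 (R 4.3.3). Genes were kept by filterByExpr, scaled with TMM and fitted as 3 group means over all 9 samples (glmQLFit, glmQLFTest). Benjamini-Hochberg adjustment covered all 18452 genes, and calls needed an adjusted p below 0.05 and a change of at least 2-fold. The log2 CPM of the profiles and of the replicate correlations used a prior count of 2, and fold changes the edgeR default. SE is the log2 fold change divided by the square root of F. Depth was 5212804 to 10644408 counts a sample, and the common dispersion was 0.0277. Levels in counts per 1000000 (CPM) have no other normalization than TMM.

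The members and lists were chosen with earlier results of these data known. Named genes were the 8 members, other metallothioneins and pseudogenes with counts, genes of the metal, oxidant and glucocorticoid lists past the threshold in any comparison, ESX1, and the 5 profiles nearest to MT1E, the metallothionein with the highest mean level. Marker lists are given by their sums, and the markers named beside them were picked after their values were seen. Promoters are from RefSeq. Alternatives were DESeq2 1.42.0, limma 3.58.1 on the deposited log2 values, other scalings, filters and thresholds, thinning to 5212804 counts, a replicate block, and leaving out each sample. The fits were tested on simulated data. The authors' own comparisons were not used.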

Additional observations from a re-analysis of the deposited data

How the results depend on the processing

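Of the 498 values of the 8 genes under the alternatives, 464 kept their direction and their side of the threshold, 5 fell short of it, 12 newly passed it and 17, all of uncalled values, changed sign. The changed thresholds reused the values of the main fit, so under them no direction could change. Some of the 12 passed only because the fold limit was dropped. Called members in NC against WT numbered 2, but 1 with limma on the deposited log2 values (MT1G at -0.90), 6 with no minimum fold, and 2 to 4 when single samples were left out, with 4 without NC replicate 1 and 3 without WT replicate 1. In ESX1 against WT they numbered 4, but 2 with limma (MT1E -0.94, MT1F -0.95), 3 after thinning (MT1F -0.99), 6 with no minimum fold, and 4 with upper-quartile factors, which lost MT1E (-0.97) and gained MTF1 (1.03), and 4 to 5 when single samples were left out. In ESX1 against NC they numbered 0 under all settings run. Metallothioneins with an adjusted p below 0.05 numbered 5 against WT in either transfected group and 4 to 5 when single samples were left out, MT2A being the one lost.

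Sign changes concerned SLC30A1, MT1M and MT2A. SLC30A1 in NC against WT (-0.01) was at 0.08 with upper-quartile factors, 0.01 with no filter beyond 1 count or without mitochondrially encoded genes, 0.04 with at least 10 counts in every sample, 0.03 with the 6 samples compared, and -0.12 to 0.19 when single samples were left out (0.11 without WT replicate 2, 0.19 without NC replicate 1, 0.01 without ESX1 replicate 3). In the other comparisons such fits gave -0.06 to 0.24 (ESX1 against WT, -0.06 without ESX1 replicate 3) and -0.07 to 0.25 (ESX1 against NC, -0.05 without NC replicate 1, -0.07 without ESX1 replicate 3). MT1M ranged from -0.83 to 0.17 (NC against WT) and from -0.79 to 0.21 (ESX1 against WT), with the highest values without WT replicate 3, and from -0.21 to 0.34 (ESX1 against NC, -0.08 without ESX1 replicate 1, -0.21 without ESX1 replicate 2, -0.04 with limma). MT2A in ESX1 against NC ranged from -0.05 (without NC replicate 2) to 0.47. MT1M was not tested under the minimum of 10 counts or after thinning. The cause was not tested.

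With the replicate block, called members stayed at 2, 4 and 0. The replicate numbers come from the sample titles only. The correlations of same-numbered deviations ran from -0.030 to 0.022, -0.006 to 0.057 and 0.016 to 0.193, and 1, 2 and 2 of 3 samples were nearest to their own number, so the numbers were not taken as pairs.

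Over all genes the calls numbered 973, 2131 and 328, against 338, 937 and 177 with limma, 563, 1192 and 200 with at least 10 counts in every sample, and 3158, 5306 and 784 with no minimum fold. An adjusted p below 0.01 gave 551 in NC against WT and 199 in ESX1 against NC, where leaving out NC replicate 3 gave 209. Upper-quartile factors moved the median of all genes by 0.09 and 0.10 in the comparisons with WT and the share of calls that were higher in NC against WT from 59.2% to 69.5%, while limma gave 49.1%. Depth limits MT1M most, with 3 counts in its lowest libraries.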
